A study of Mus musculus with 6 samples.

Results

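Respiratory complex I was followed through the genes whose symbol starts with Nduf, in hind limb skeletal muscle of mice deficient in the laminin alpha 2 chain and of wild type mice. The members were all genes with a probe set that carries exactly 1 symbol starting with Nduf, each read by the probe set with the highest mean signal over the 6 arrays. This gave 44 genes read by 88 probe sets, of 18193 genes with a probe set of 1 symbol. They comprise 6 nuclear core subunits, 28 accessory subunits, 8 assembly factors, and Ndufa4 and Ndufa4l2, which carry the name but are assigned to complex IV. Of the 44, 43 passed the filter on dim probe sets. Ndufb4 did not, since its only probe set with 1 symbol read between 10.3 and 17.8 signal units.

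The deficient group holds 3 mice and the wild type group 3 mice, all 4 weeks old, each with its hind limb muscles isolated on its own and read on 1 Affymetrix array, per the labels. The labels do not name the allele, the strain or the sex. Laminin alpha 2 is a chain of the laminin that joins the muscle fibre to its basement membrane, and its loss causes a congenital muscular dystrophy. Each array gives 1 linear signal per probe set as deposited, and with 3 arrays a group the precision is limited by their number. A log2 fold change here is the deficient mean minus the wild type mean of log2(signal + 16). The added constant makes the changes of dim genes look smaller. A gene counts as risen or fallen where its limma p, adjusted after Benjamini-Hochberg over all 13105 genes tested, is under 0.05. Means are given with their SD (n = 3 each).

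Complex I is the entry point of the respiratory chain. It takes electrons from NADH, passes them along iron-sulphur clusters in its matrix arm to ubiquinone, and pumps protons through its membrane arm. Core subunits carry out these reactions and are encoded partly in mitochondrial DNA and partly in the nucleus, accessory subunits surround and stabilise them, and assembly factors join the modules but are absent from the finished enzyme. Muscle fibres, above all oxidative ones, depend on it for ATP. The core subunits encoded in mitochondrial DNA were not analysed here.

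The array medians lay between 20 and 26.1 signal units, and the per-sample median of all tested genes, relative to the wild type mean, lay between -0.02 and 0.06 on the log2 scale. Lama2, the targeted gene, read 82.0, 31.1 and 140.4 in deficient muscle, against 428.7, 415.6 and 326.2 in wild type muscle (adjusted p = 0.0209, log2 fold change -2.17). Leaving out wild type replicate 1, wild type replicate 2 or deficient replicate 1 ended the Lama2 call (adjusted p = 0.104, 0.084 and 0.0591), and the adjusted p over every setting tried lay between 0.00337 and 0.398. The muscle markers Ckm, Acta1, Myh4 and Tnni2 read at least 9132.1 signal units in every library. Y-linked Eif2s3y was above 100 signal units in replicates 1 and 2 of each group, while Xist was above 100 in replicate 3 of each group and also, at 396.3, in deficient replicate 1, which therefore carried both. Hair follicle and epidermal transcripts were high in wild type replicates 1 and 2, where 9 marker genes summed to 2494 and 1268 signal units, against 290 or less in the other libraries.

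Complex I genes were lower in deficient muscle. The 43 tested members also hold Ndufa4 and Ndufa4l2 of complex IV, which are in every count here except that of the 9 that fell. All 43 tested members had a negative log2 fold change, as did 47.4% of all genes tested, and their median was -0.51, beside 0.02 over all genes. Of the 43, 9 fell, 0 rose and 34 did not pass, where 1.44% of all genes fell, 1.24% rose and 2.69% did either. No member was higher at an unadjusted p under 0.05 either, and 33 were lower at that level, beside 9.48% of all genes. In 35 members all 3 deficient libraries lay below all 3 wild type libraries, which held for 12.4% of all genes. The genes that fell were the accessory subunits Ndufc1, Ndufs5, Ndufv3, Ndufab1, Ndufa10, Ndufa8 and Ndufa12 and the assembly factors Ndufaf6 and Ndufaf5. The called accessory subunits stood between 54.7% and 64.1% of their wild type mean signal, and Ndufaf6 and Ndufaf5 at 42.2% and 45.3%.

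Which genes were called depended on single libraries. Without wild type replicate 1 or wild type replicate 2, 0 of the members tested were called by limma, with 26 and 28 of 43 at an unadjusted p under 0.05. The number called was 4 with wild type replicate 3 left out, and 3, 1 and 10 with deficient replicate 1, 2 or 3 left out. Over the same 6 fits the share of all genes called lower was 0.2%, 0.228%, 1.08%, 0.595%, 0.359% and 2.09%, and the median of the members ran from -0.55 to -0.48. With Y-linked transcripts entered as a block, 24 of 43 members were called lower, where 4.57% of all genes were, and with the replicate number as a block 14 were, where 3.32% of all genes were. With both wild type libraries that carried hair follicle transcripts left out, 0 were called by limma (0.0383% of all genes), 8 were at an unadjusted p under 0.05 and the median was -0.47, in a fit where the lone wild type library is assumed to vary like the deficient ones.

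**Figure D1:**
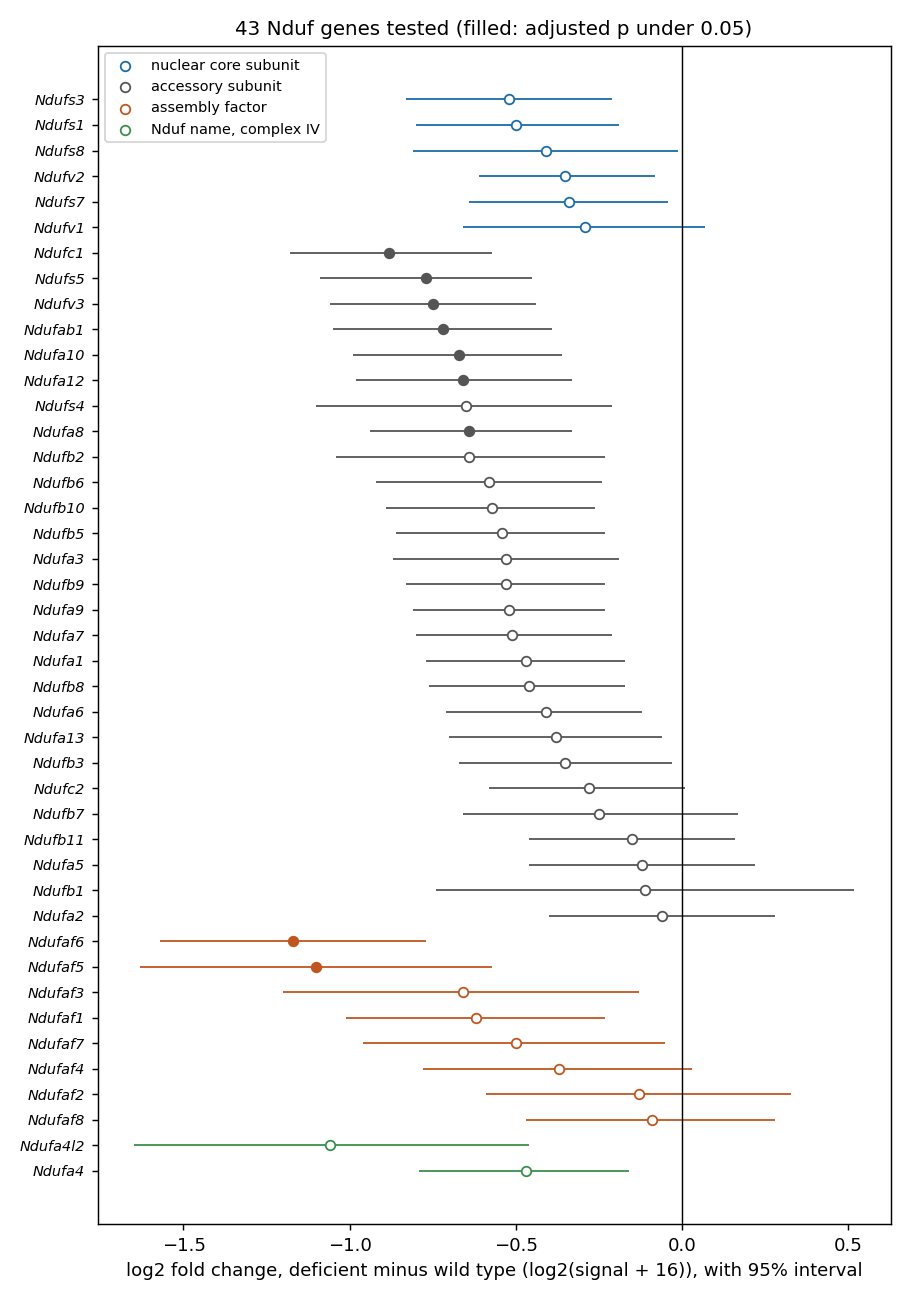
Log2 fold change (deficient minus wild type, log2(signal + 16)) of each of the 43 tested Nduf genes on the horizontal axis, with its 95% interval from limma as a line, grouped by role. Every point lies left of 0, and the filled points are the 9 genes with an adjusted p under 0.05.

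**Figure D2:**
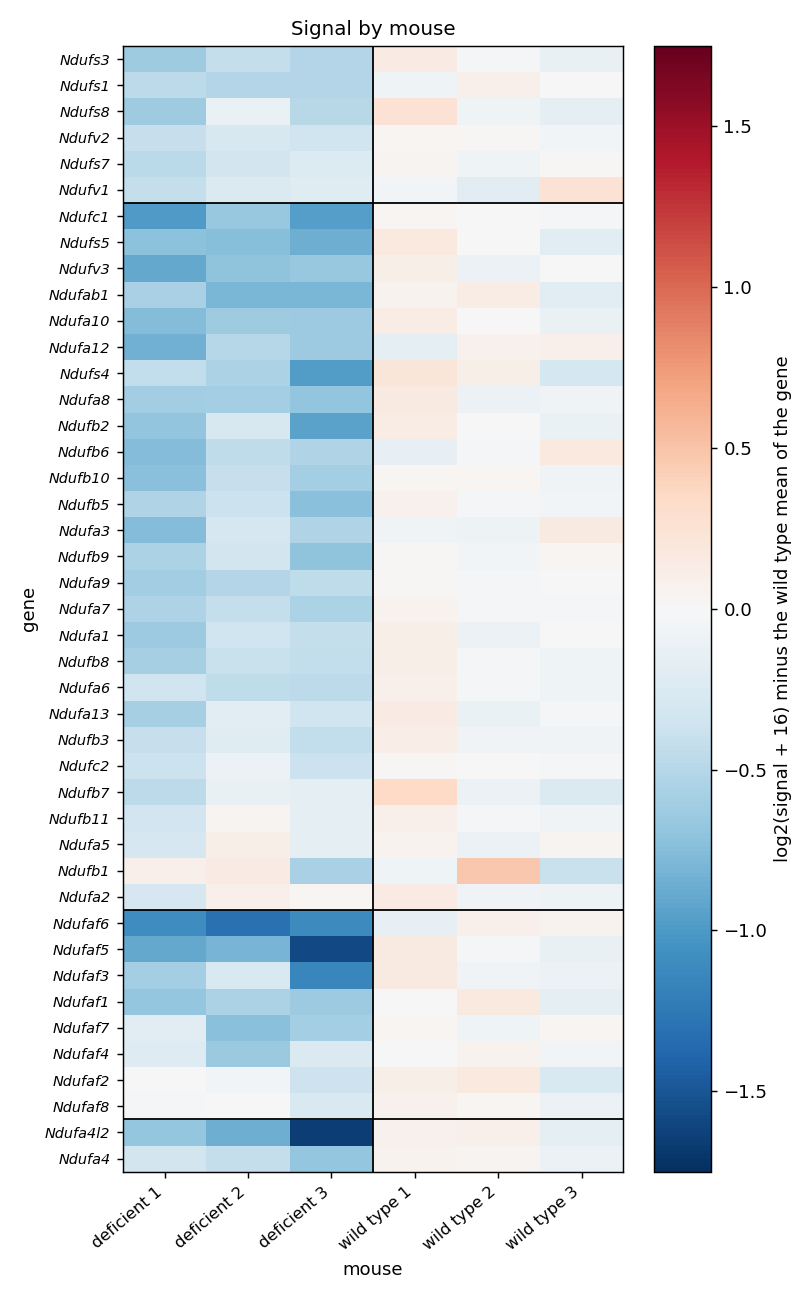
Signal of each tested Nduf gene (rows, in the same order as the plot of differences) in each mouse (columns), as log2(signal + 16) minus the wild type mean of that gene, with black lines between roles. The deficient columns are mostly below 0, with medians of -0.57, -0.40 and -0.53, against 0.07, -0.02 and -0.06 in the wild type columns.

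Within the groups the libraries differed in a shared way, as the map of signal by mouse shows. Among the deficient libraries, replicate 2 was the highest in 28 of 43 members, and replicates 1 and 3 were the lowest in 22 and 17. Among the wild type libraries, replicate 1 was the highest in 30 and replicate 3 the lowest in 27. The assembly factors did not follow the first of these patterns: their median relative to wild type was -0.41, -0.60 and -0.62 in deficient replicates 1, 2 and 3, whereas that of the accessory subunits was -0.58, -0.38 and -0.56.

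The 6 nuclear core subunits tested were all lower in deficient muscle but none passed: 0 rose and 0 fell by limma, with 5 lower at an unadjusted p under 0.05, and their median was -0.38, with values from -0.52 to -0.29. Ndufs3, a subunit of the ubiquinone-binding module, read 2507.5, 2883.1 and 2694.0 signal units in deficient muscle, against 4285.3, 3818.1 and 3525.2 in wild type muscle. The groups did not overlap (log2 fold change -0.52, SE 0.139, adjusted p = 0.0839). Ndufs1, the large iron-sulphur subunit of the NADH-oxidising module, read 1740.6, 1680.9 and 1684.1 in deficient muscle and 2273.0, 2556.0 and 2399.7 in wild type muscle. The deficient libraries were close together there, with 1702 ± 33.6 against 2410 ± 142 in wild type muscle (log2 fold change -0.50, adjusted p = 0.0899).

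Ndufv1, which binds NADH and the flavin that first accepts its electrons, read 1819.5, 2042.8 and 2109.5 in deficient muscle, against 2364.0, 2112.9 and 2901.0 in wild type muscle. Wild type replicate 2 was only just above the highest deficient library (log2 fold change -0.29, interval -0.66 to 0.07, adjusted p = 0.365). On the other probe sets of Ndufv1 the groups overlapped, with log2 differences of -0.16 and -0.32. Its partner Ndufv2, which carries an iron-sulphur cluster, read 4225.3, 4631.8 and 4394.1 in deficient muscle and 5749.0, 5672.1 and 5421.9 in wild type muscle. On this probe set the groups did not overlap (log2 fold change -0.35, adjusted p = 0.156). They overlapped on its other probe sets, which were also bright and had log2 differences of -0.17 and -0.18, and the mean of the probe sets gave -0.23. Ndufs7, which holds the cluster that hands electrons to ubiquinone, read 2600.1, 2903.7 and 3075.6 in deficient muscle and 3761.1, 3453.5 and 3659.9 in wild type muscle (log2 fold change -0.34, adjusted p = 0.203). The other probe set of Ndufs7 stood at 2306 ± 117 in deficient and 3551 ± 285 in wild type muscle, a log2 difference of -0.62. Ndufs8, a further iron-sulphur subunit, was the one core gene whose groups overlapped on the brightest probe set. That probe set read 2492.0, 3563.8 and 2737.1 in deficient muscle and 4605.8, 3645.6 and 3411.0 in wild type muscle (log2 fold change -0.41, adjusted p = 0.255). Other probe sets of Ndufs8 kept the groups apart, with log2 differences of -0.74, -0.44 and -0.69. The groups overlapped on the rest, at -0.60 and, on a dim one, 0.09. Without wild type replicate 1 the probe set at -0.74 became the brightest, and the value of -0.87 in that fit is its value. With wild type replicates 1 and 2 both left out the value was -0.23.

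Accessory subunits held 7 of the 9 calls. Among the 27 tested, 7 fell, 0 rose and 20 did not pass, with a median of -0.53 and values from -0.88 to -0.06. Ndufc1, a small subunit of the membrane arm, read 3402.2, 4285.5 and 3469.6 in deficient muscle, against 6957.8, 6756.3 and 6685.1 in wild type muscle. Every wild type library was far above every deficient one, at 3719 ± 492 in deficient and 6800 ± 141 in wild type muscle (log2 fold change -0.88, SE 0.134, adjusted p = 0.0142). The other probe set of Ndufc1 had a log2 difference of -0.98. Ndufs5, which sits on the intermembrane space side of the membrane arm, read 2508.3, 2477.8 and 2280.4 in deficient muscle, against 4654.9, 4180.6 and 3658.0 in wild type muscle. It fell to 58.2% of the wild type mean (log2 fold change -0.77, adjusted p = 0.0263).

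Ndufv3, an accessory subunit of the NADH-oxidising module, read 2177.4, 2493.0 and 2564.1 in deficient muscle and 4374.4, 3780.6 and 4029.1 in wild type muscle (log2 fold change -0.75, adjusted p = 0.0263). It stands beside the core subunits Ndufv1 and Ndufv2 in the enzyme, for which the log2 fold changes were -0.29 and -0.35, and the difference between these genes was not tested. Ndufab1 encodes the mitochondrial acyl carrier protein, which also serves fatty acid synthesis and lipoic acid formation. It read 2895.2, 2472.1 and 2462.5 in deficient muscle and 4515.3, 4720.0 and 3759.9 in wild type muscle (log2 fold change -0.72, adjusted p = 0.0368). All 5 of its probe sets had a negative difference, but in 3 of them, all far dimmer, the groups overlapped.

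Ndufa10, on the matrix side of the membrane arm, read 1699.7, 1867.0 and 1847.8 in deficient muscle, against 3154.8, 2866.7 and 2660.8 in wild type muscle (log2 fold change -0.67, adjusted p = 0.0394). Ndufa8, an intermembrane space subunit with paired cysteines, read 2420.0, 2445.0 and 2294.7 in deficient muscle, against 4138.3, 3465.9 and 3572.6 in wild type muscle (log2 fold change -0.64, adjusted p = 0.043). Neither gene had overlapping groups, and the deficient libraries spread less than the wild type ones in both. Ndufa12, a matrix arm subunit, read 3327.9, 4251.1 and 3867.6 in deficient muscle and 5331.0, 6307.2 and 6403.1 in wild type muscle (log2 fold change -0.66, adjusted p = 0.0463). This call was the closest to the threshold of the 9. Among other settings, it was lost with a pseudocount of 1 (adjusted p = 0.0507), quantile normalization (adjusted p = 0.0625) and the mean of the probe sets (adjusted p = 0.116). Ndufa12 was called in 8 of 20 settings, counting the one reported. Its other bright probe sets had log2 differences of -0.61 and -0.80, and a dim one had -0.01 with overlapping groups.

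**Figure D3:**
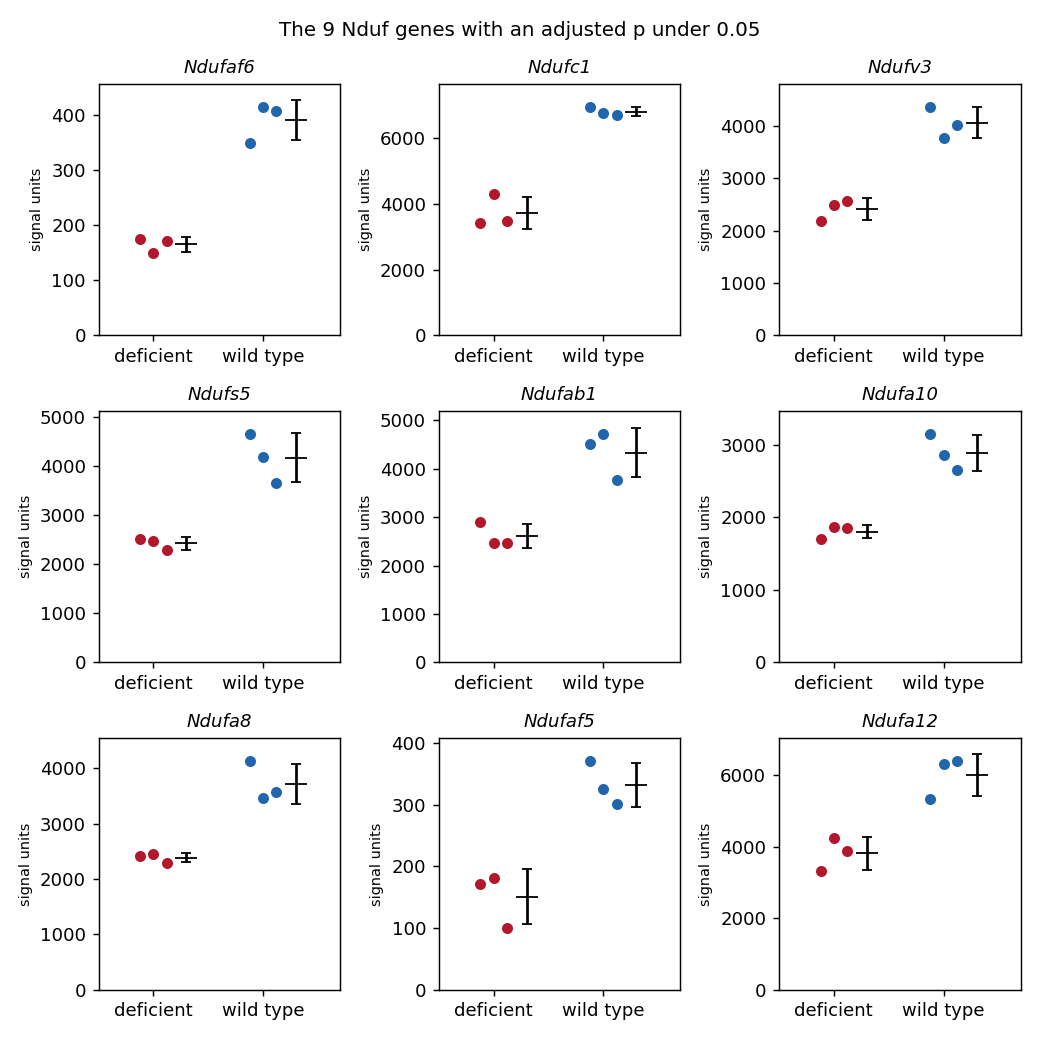
Signal units of the 9 Nduf genes with an adjusted p under 0.05, by adjusted p, in the 3 deficient and the 3 wild type mice (points), with the mean and SD of each group as black bars beside them. In every panel the 3 deficient points lie below the 3 wild type points, for example at 148.8 to 175.3 against 350.4 to 415.9 for Ndufaf6.

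Among the accessory subunits that did not pass, those with the smallest p were Ndufb10, Ndufa9 and Ndufb9. Ndufb10, another cysteine-paired subunit of the membrane arm, read 2155.5, 2724.1 and 2384.7 in deficient muscle and 3673.7, 3669.6 and 3453.8 in wild type muscle (log2 fold change -0.57, adjusted p = 0.0661). Ndufa9, at the junction of the arms, read 2126.0, 2287.7 and 2396.6 in deficient muscle and 3316.8, 3190.4 and 3264.4 in wild type muscle (log2 fold change -0.52, adjusted p = 0.0708). Ndufb9, a membrane arm subunit of the LYR protein family, read 4732.7, 5566.0 and 4259.0 in deficient muscle and 7056.0, 6747.9 and 7131.0 in wild type muscle (log2 fold change -0.53, adjusted p = 0.0711). All 3 genes kept the groups apart. A further 12 accessory subunits also had every deficient library below every wild type library. These were Ndufa1, Ndufa3, Ndufa6, Ndufa7, Ndufa13, Ndufb2, Ndufb3, Ndufb5, Ndufb6, Ndufb8, Ndufc2 and Ndufs4, with log2 fold changes from -0.65 to -0.28 and adjusted p from 0.0737 to 0.282.

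On the brightest probe set of each gene, the groups overlapped in 5 accessory subunits, Ndufa2, Ndufa5, Ndufb1, Ndufb7 and Ndufb11. Ndufa2, a matrix arm subunit with a thioredoxin-like fold, read 2826.6, 3695.9 and 3550.5 in deficient muscle, against 3846.3, 3338.2 and 3263.9 in wild type muscle (log2 fold change -0.06, interval -0.40 to 0.28, adjusted p = 0.879). Its direction was not stable and became 0.10 under quantile normalization. Ndufa5 had a log2 fold change of -0.12 (interval -0.46 to 0.22) and Ndufb11 one of -0.15 (interval -0.46 to 0.16), while Ndufb1 and Ndufb7 had wider intervals, from -0.74 to 0.52 and from -0.66 to 0.17. The only probe set of Ndufb1 was far dimmer than the brightest ones of the other tested accessory subunits. It stood at 101 ± 29.3 in deficient and 111 ± 39.3 in wild type muscle, and its log2 fold change ran from -0.31 to 0.28 over the settings. A decrease of the size seen for Ndufc1 lay outside all 5 intervals, which hold for the brightest probe set only, for Ndufb1 a dim one. Other bright probe sets had log2 differences of -0.33 for Ndufa5, -0.44 for Ndufb7, and -0.20 and -0.42 for Ndufb11. The groups did not overlap on those of Ndufb11, and overlapped on those of Ndufa5 and Ndufb7.

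Sorted by place in the enzyme, the arms gave similar values. Among the 14 matrix arm subunits, core and accessory, 2 fell, 0 rose and 12 did not pass, with a median log2 fold change of -0.45. Among the 18 membrane arm subunits, 4 fell, 0 rose and 14 did not pass, with a median of -0.53. Ndufab1, which occurs in both arms, was counted in neither. The difference between the arms was not tested.

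The assembly factors Ndufaf6 and Ndufaf5 had the lowest log2 fold changes of the 43 members with the constant of 16. As a share of the wild type mean signal, Ndufa4l2 (44.6%) stood just under Ndufaf5 (45.3%). Among the 8 tested, 2 fell, 0 rose and 6 did not pass, with a median of -0.56 and values from -1.17 to -0.09. Ndufaf6, which is needed for making a core subunit encoded in mitochondrial DNA, read 175.3, 148.8 and 171.3 in deficient muscle, against 350.4, 415.9 and 408.0 in wild type muscle. It fell to 165 ± 14.3 in deficient muscle, against 391 ± 35.8 in wild type muscle, which is 42.2% of the wild type mean (log2 fold change -1.17, SE 0.178, adjusted p = 0.0138). Ndufaf5, an enzyme that modifies an arginine of the core subunit Ndufs7, read 170.6, 181.3 and 99.9 in deficient muscle, against 371.0, 325.5 and 300.4 in wild type muscle (log2 fold change -1.10, SE 0.236, adjusted p = 0.0433). Deficient replicate 3 was well below the other deficient libraries.

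Ndufaf1, which works in an early membrane assembly complex with Ecsit and Acad9, read 331.9, 362.2 and 339.4 in deficient muscle and 534.1, 607.2 and 478.8 in wild type muscle (log2 fold change -0.62, adjusted p = 0.0929). Ndufaf3, which acts early in building the ubiquinone module, read 216.4, 276.5 and 143.7 in deficient muscle and 375.7, 321.3 and 310.6 in wild type muscle (log2 fold change -0.66, adjusted p = 0.174). In neither gene did the groups overlap. Ndufaf4, the partner of Ndufaf3, and Ndufaf7, a methyltransferase, had log2 fold changes of -0.37 and -0.50 (adjusted p = 0.304 and 0.218). The dimmer probe set of Ndufaf4 read 250 ± 44.7 in deficient and 468 ± 33 in wild type muscle, a difference of -0.88, and the mean of both gave -0.63 (adjusted p = 0.0766). Ndufaf8, which stabilises Ndufaf5, read 593.8, 611.5 and 501.5 in deficient muscle and 638.7, 620.1 and 561.2 in wild type muscle, so the groups overlapped (log2 fold change -0.09, interval -0.47 to 0.28, adjusted p = 0.815). Ndufaf2, a relative of Ndufa12 that holds its place during assembly, overlapped too, at -0.13 (interval -0.59 to 0.33).

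Assembly factors of complex I that carry other names had a median log2 fold change of -0.55, but none passed. Among the 12 tested, 0 rose and 0 fell by limma, with 8 lower at an unadjusted p under 0.05, beside 9.48% of all genes, and 9 with groups that did not overlap, beside 12.4%. Tmem70, which takes part in the assembly of ATP synthase and complex I, stood at 647 ± 153 in deficient and 1161 ± 99.9 in wild type muscle (adjusted p = 0.0621). Ecsit stood at 296 ± 35.5 in deficient and 492 ± 117 in wild type muscle (adjusted p = 0.116).

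Ndufa4 and Ndufa4l2 share the name without belonging to complex I. Ndufa4 read 4213.4, 3933.2 and 3275.7 in deficient muscle and 5463.5, 5443.9 and 4887.0 in wild type muscle (log2 fold change -0.47, adjusted p = 0.11). Ndufa4l2, a relative that is induced by low oxygen, read 88.8, 77.1 and 37.3 in deficient muscle and 159.7, 161.7 and 134.7 in wild type muscle (log2 fold change -1.06, adjusted p = 0.0694). In both, no deficient library reached the lowest wild type library.

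Different probe sets of a gene mostly moved the same way. Of the 88 member probe sets, 85 were above the filter, and 81 of these had a negative difference. In 18 of the 22 genes with more than 1 such probe set all differences were negative, and in 6 genes the probe sets of a gene differed by more than 0.5. The 4 probe sets with a positive difference were dim ones of Ndufb2 (0.11), Ndufb8 (0.05), Ndufs4 (0.47) and Ndufs8 (0.09). Ndufs4, a matrix arm subunit joined late in assembly, was the widest case: its brightest probe set read 2058.4, 1877.2 and 1398.5 in deficient muscle and 3203.5, 2967.2 and 2229.7 in wild type muscle, a log2 difference of -0.65. Its other probe sets gave -0.09, -1.06 and 0.47, the last at 22.6 ± 6.11 in deficient and 11.7 ± 2.9 signal units in wild type muscle. The brightest probe set of Ndufb2 read 2229.5, 2966.2 and 1885.5 in deficient muscle and 3940.2, 3599.9 and 3330.8 in wild type muscle (log2 fold change -0.64, adjusted p = 0.0983). That of Ndufb8 read 2960.7, 3391.4 and 3278.5 in deficient muscle and 4764.0, 4325.2 and 4217.0 in wild type muscle (log2 fold change -0.46, adjusted p = 0.0954). With the mean of the probe sets of a gene, Ndufb2, Ndufb8 and Ndufs4 gave -0.41, -0.21 and -0.33.

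A further 10 probe sets carry an Nduf symbol together with others and were not among the members. For Ndufb4, whose own probe set was too dim to test, the 2 shared with Ndufb4b and Ndufb4c were bright and read 2700.4, 2461.1 and 2132.1 in deficient muscle, against 4140.2, 4069.9 and 3818.1 in wild type muscle, on one, and 2230.0, 1968.2 and 1693.7 against 3882.9, 3601.9 and 3281.1 on the other. Both had groups that did not overlap, with log2 differences of -0.72 and -0.87. The probe set shared by Ndufs6 and Ndufs6b, a pseudogene in RefSeq, had a difference of -0.54, and the brighter one shared by Ndufa11 and Ndufa11b one of -0.46. Which of the genes gave these signals cannot be told apart.

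The promoters of the members were set beside the differences, since most of the members moved together. RefSeq windows of 300 bases on GRCm38.p6, from 250 bases before to 50 after the start of transcription, were found for 39 of the 44 genes (41 windows). Motifs of factors known to act on nuclear genes of mitochondrial proteins were searched on both strands, namely GCGCA followed directly by its reverse complement for NRF1, TCAAGGTCA for ERR alpha, CCGGAAGT for GABPA, AAGATGGCG for YY1 and GGGGCGGGG for SP1. The YY1 motif was in 5 member windows (12.2%), beside 1.4% of all 32851 windows, and the NRF1 motif in 2 (4.88%), beside 0.971%. The SP1 motif was in 6 (14.6%, beside 11.4%), the GABPA motif in 1 (2.44%, beside 3.89%) and the ERR alpha motif in 0 (beside 0.423%). The following windows show the called genes Ndufc1 and Ndufaf5, which hold a match, the called genes Ndufs5 and Ndufv3, which hold none, and Ndufaf8, which holds a match and did not pass. They lie at chr3:51408906-51409205 (minus strand), chr2:140170396-140170695 (plus), chr4:123718137-123718436 (minus), chr17:31519865-31520164 (plus) and chr11:120098684-120098983 (plus), written 5′ to 3′ on the strand of the gene, with motif matches in capitals.
Ndufc1: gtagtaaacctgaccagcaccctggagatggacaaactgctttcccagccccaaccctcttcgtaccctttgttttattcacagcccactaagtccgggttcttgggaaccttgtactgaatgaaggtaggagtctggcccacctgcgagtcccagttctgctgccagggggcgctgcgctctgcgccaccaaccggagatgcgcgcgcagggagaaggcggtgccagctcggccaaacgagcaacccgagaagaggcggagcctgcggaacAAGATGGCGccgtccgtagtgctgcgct
Ndufaf5: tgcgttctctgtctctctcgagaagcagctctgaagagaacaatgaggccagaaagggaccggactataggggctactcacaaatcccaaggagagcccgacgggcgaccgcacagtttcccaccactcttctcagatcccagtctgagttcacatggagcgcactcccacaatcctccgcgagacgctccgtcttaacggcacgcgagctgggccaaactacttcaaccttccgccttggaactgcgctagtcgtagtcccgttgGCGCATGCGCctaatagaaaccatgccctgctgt
Ndufs5: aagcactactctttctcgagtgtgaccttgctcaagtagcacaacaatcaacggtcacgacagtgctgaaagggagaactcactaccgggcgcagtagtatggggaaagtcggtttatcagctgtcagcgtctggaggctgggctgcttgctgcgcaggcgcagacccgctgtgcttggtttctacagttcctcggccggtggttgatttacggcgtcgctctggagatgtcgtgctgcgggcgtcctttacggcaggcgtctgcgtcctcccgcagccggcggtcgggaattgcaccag
Ndufv3: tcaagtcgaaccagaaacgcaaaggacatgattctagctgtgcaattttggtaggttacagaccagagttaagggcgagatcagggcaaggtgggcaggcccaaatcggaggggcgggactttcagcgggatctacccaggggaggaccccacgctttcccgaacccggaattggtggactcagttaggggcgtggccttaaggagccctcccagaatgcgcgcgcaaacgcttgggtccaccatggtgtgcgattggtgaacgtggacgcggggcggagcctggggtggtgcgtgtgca
Ndufaf8: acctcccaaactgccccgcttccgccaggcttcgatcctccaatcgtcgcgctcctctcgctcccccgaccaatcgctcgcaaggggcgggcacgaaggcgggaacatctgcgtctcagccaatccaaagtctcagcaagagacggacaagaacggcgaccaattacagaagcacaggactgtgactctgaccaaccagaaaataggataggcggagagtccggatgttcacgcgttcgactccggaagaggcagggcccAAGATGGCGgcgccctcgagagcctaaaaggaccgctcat

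The capitals mark the YY1 motif in Ndufc1 and Ndufaf8 and the NRF1 motif in Ndufaf5. All 5 YY1 matches began between 11 and 36 bases downstream of the start and read in the direction of the gene. They were in Ndufc1, Ndufs4, Ndufa9, Ndufs7 and Ndufaf8, with log2 fold changes of -0.88, -0.65, -0.52, -0.34 and -0.09, so genes with this match spanned most of the range of the members. The NRF1 matches were in Ndufaf5 (-1.10) and Ndufaf4 (-0.37). A match is a run of letters in this window and does not show that a factor binds there.

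Many of these windows face another gene. In 15 of 41 member windows (36.6%) the window overlapped that of a gene on the opposite strand, as did 10.8% of all windows. Of 10 such partner genes tested, 0 were called by limma, beside 2.69% of all genes, and 2 were lower at an unadjusted p under 0.05, beside 9.48%. The log2 fold change was negative in 4, beside 47.4% of all genes, and positive in 6. The pairs named next were chosen after their values were seen. Ndufaf5 had a log2 fold change of -1.10, while its partner Esf1, a gene of ribosomal RNA processing, had one of 0.28 (adjusted p = 0.516). Ndufa7 had one of -0.51, and its partner Rps28, a ribosomal protein gene, one of 0.06 (adjusted p = 0.825). Ndufa5 had one of -0.12, while its partner Asb15 had one of -1.32 (adjusted p = 0.0952), which was the lowest of the 10. Ndufs3 and its partner Kbtbd4 gave -0.52 and -0.57 (adjusted p = 0.0839 and 0.189). The differences within pairs were not tested.

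Other nuclear genes of mitochondria were lower as well. Of 42 genes of complexes II to V, 0 rose, 3 fell and 39 did not pass, with a median log2 fold change of -0.34 and 34 with groups that did not overlap, beside 12.4% of all genes. Of 76 mitochondrial ribosomal protein genes, 0 rose, 4 fell and 72 did not pass, with a median of -0.43 and 46 with all deficient libraries lowest. The genes that fell were Sdhb, Cox7a1 and Atp5g1 of the respiratory complexes and Mrpl14, Mrpl42, Mrps21 and Mrps36 of the ribosomal list, named after their values were seen. The members, with 9 of 43 called and a median of -0.51, lay on the same side, and the differences between these lists were not tested. Among 15 genes of general mitochondrial content, 0 rose and 0 fell by limma, with 4 lower at an unadjusted p under 0.05, beside 9.48% of all genes. Their median was -0.16. The log2 fold change was negative in 14, beside 47.4% of all genes, and in 6 all deficient libraries were lowest, beside 12.4%. Timm23, an import channel gene, stood at 2907 ± 286 in deficient and 3881 ± 483 in wild type muscle (adjusted p = 0.175), and Vdac1, the outer membrane channel, at 5195 ± 340 in deficient and 6560 ± 495 in wild type muscle (adjusted p = 0.186).

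**Figure D4:**
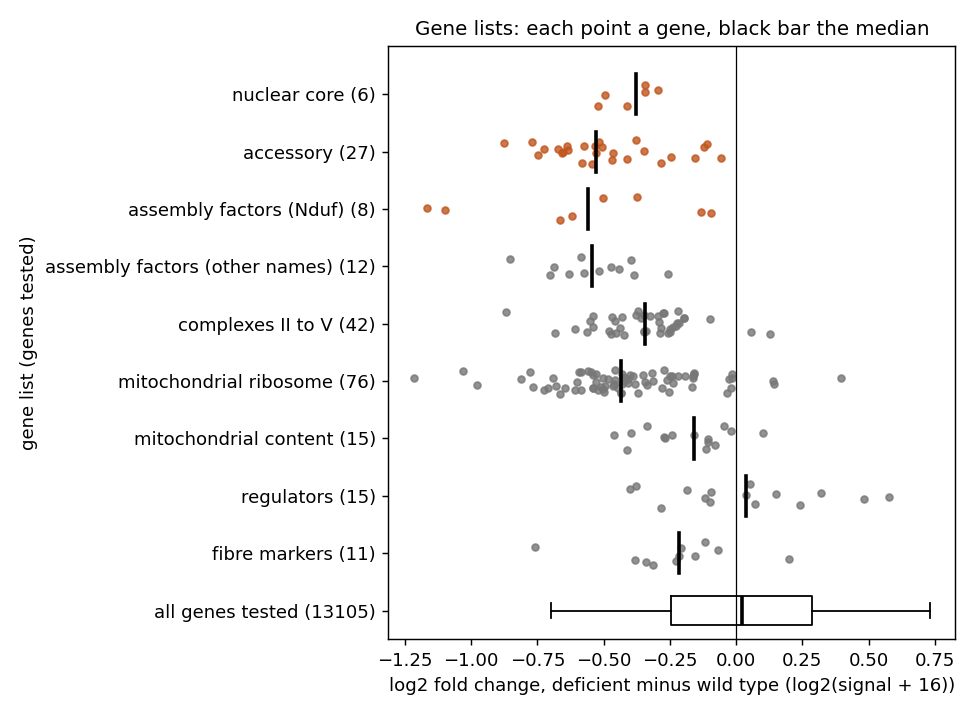
Log2 fold change (deficient minus wild type, log2(signal + 16)) on the horizontal axis for each gene (points) of the Nduf roles (orange) and of other gene lists (grey), with the median of each list as a black bar and, in the last row, a box of the quartiles of all 13105 genes tested with whiskers from the 5th to the 95th percentile. The medians are -0.38, -0.53 and -0.56 for core, accessory and assembly genes, -0.34 for complexes II to V and 0.04 for the regulators.

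Transcription factors and coactivators known to drive these genes had log2 fold changes of either sign, from -0.40 to 0.58. Among the 15 regulators, 0 rose and 0 fell by limma, with 1 higher and 0 lower at an unadjusted p under 0.05 and a median of 0.04. Yy1 was the one at that level, at 632 ± 50.8 in deficient and 419 ± 42.2 in wild type muscle (log2 fold change 0.58, adjusted p = 0.108). Nrf1 stood at 60.4 ± 12.6 in deficient and 40.1 ± 17.4 in wild type muscle (log2 fold change 0.48, adjusted p = 0.381).

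The summed markers of muscle fibres, macrophages and brown adipocytes kept the groups apart, while the sums of the other lists overlapped. In whole muscle, fewer cells of a type and less RNA per cell cannot be told apart. All 11 fibre markers were above the filter, 0 rose, 1 fell (Pygm) and 10 did not pass, and their sum was 94931 to 126091 in deficient and 127965 to 133020 in wild type muscle. The 12 macrophage markers summed to 5016 to 14037 in deficient and 3245 to 4864 in wild type muscle, with 2 that rose (Mpeg1 and Cybb), 0 that fell and 10 that did not pass. The 7 slow fibre markers summed to 9808 to 17815 in deficient and 7902 to 11189 in wild type muscle, with 1 that rose (Tnni1), 0 that fell and 6 that did not pass. The 8 fibroblast markers overlapped, at 30350 to 42594 in deficient and 20574 to 35436 in wild type muscle, with 1 that rose (Postn), 0 that fell and 7 that did not pass, as did the 6 endothelial ones, at 888 to 1295 in deficient and 1044 to 1730 in wild type muscle, of which 0 were called by limma, with 1 lower at an unadjusted p under 0.05.

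Markers of brown adipocytes, a cell type rich in mitochondria, summed to 511 to 582 in deficient and 1028 to 2782 in wild type muscle over the 6 measured. Of the 5 tested, 1 rose (Dio2), 2 fell (Ucp1 and Cidea) and 2 did not pass, and Ucp1 read 43.8, 12.7 and 43.7 in deficient muscle, against 1033.4, 356.7 and 1481.2 in wild type muscle. The 4 adipocyte markers overlapped, at 10310 to 14999 in deficient and 11028 to 15083 in wild type muscle, of which 0 were called by limma, with 1 lower at an unadjusted p under 0.05. The 9 hair follicle and epidermis markers, of which 0 rose, 1 fell (Tchh) and 8 did not pass, summed to 169 to 290 in deficient and 268 to 2494 in wild type muscle. For the actin control, the signal of the 5 prime probe set divided by that of the 3 prime one, a sign of RNA integrity, was 0.819, 0.51 and 0.573 in deficient and 1.15, 1.05 and 1.04 in wild type libraries, while the same quotient for the Gapdh control overlapped, at 1.15, 0.886 and 1.01 in deficient and 0.961, 1.19 and 1.14 in wild type libraries. It also overlapped for the pyruvate carboxylase control, at 0.0597 to 0.192 in deficient and 0.0357 to 0.242 in wild type libraries. For the transferrin receptor control it overlapped as well, at 0.0617 to 0.214 in deficient and 0.128 to 0.241 in wild type libraries. The markers named in brackets were chosen after their values were seen. No marker of these lists read 0 in any library. The part of these cell types and of RNA integrity in the lower complex I signals was not tested.

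The count of called members under the other settings of the analysis is shown by the plot of calls by setting. With median centring 6 members were called lower and 1.12% of all genes, and with quantile normalization 5 and 1.25%. Filters on dim probe sets at the 20th and 60th percentile gave 8 and 9 members, beside 1.21% and 1.96% of all genes, and no filter gave 2, beside 0.605%. A pseudocount of 1 gave 8 members (1.34% of all genes) and one of 64 gave 9 (1.43%). Taking the mean of the probe sets of a gene gave 7 (1.37%), with Ndufb6 called in addition and Ndufa10, Ndufa12 and Ndufab1 lost. By eBayes without an intensity trend 1 member was called (0.588% of all genes), which was Ndufaf6, and by robust eBayes 9 were (1.49%).

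**Figure D5:**
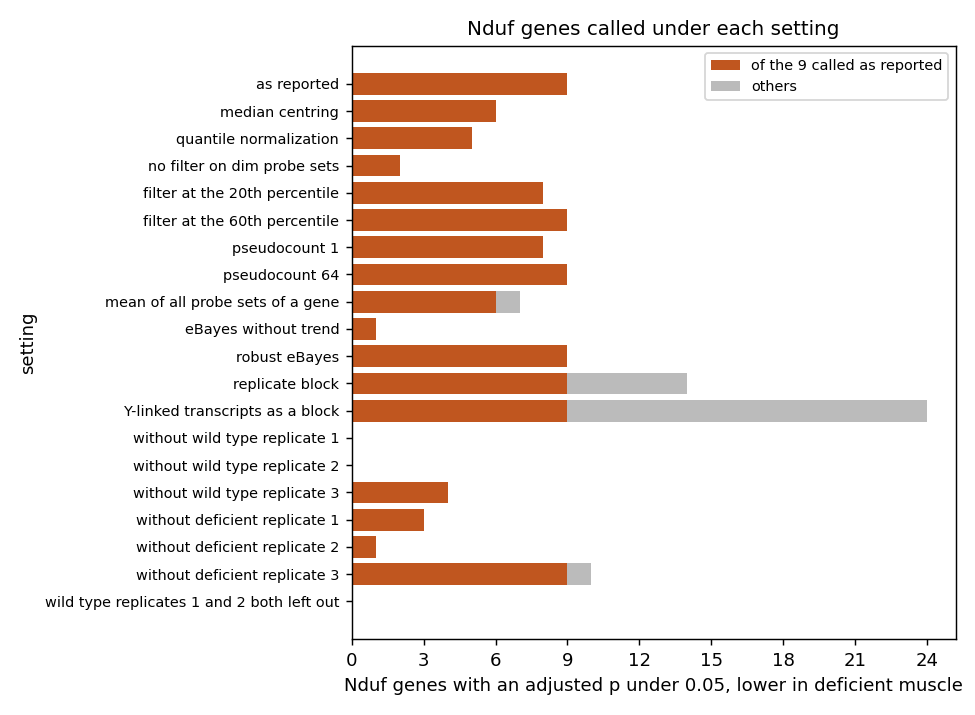
Number of Nduf genes with an adjusted p under 0.05, all lower in deficient muscle, on the horizontal axis, under each setting of the analysis (rows). Orange marks genes among the 9 reported calls and grey marks others, and the count runs from 0 without wild type replicate 1 or 2 to 24 with Y-linked transcripts as a block.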

How the data were processed

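RNA of 6 mice was read on 1-colour Affymetrix arrays, with biotinylated cRNA made from 1 ug of total RNA, per the labels' protocols. As deposited, each value is a linear signal intensity of 1 probe set on 1 array. No source used here gives the algorithm behind it. Groups and replicate numbers come from the sample titles. Gene symbols come from GEO's platform annotation, updated through Entrez identifiers with RefSeq of GRCm38.p6.

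Values were taken as log2(signal + 16), with no further normalization, since array medians differed by 0.226 at most on the log2 scale. Those medians, at 20 to 26.1 signal units, lie far below the signals of most members. They do not show how the arrays compare at bright probe sets. Of 45101 probe sets, 64 were controls and 34945 had 1 symbol. Probe sets under the 40th percentile of mean log2 value (14.0 signal units) were dropped, and the brightest remaining one stood for each gene. Where libraries were left out, the brightest was picked anew from those kept, so the probe set of a gene can differ between fits. The comparison used R 4.3.3 and limma 3.58.1 with lmFit and a trended eBayes, two-sided and without a block. Its adjusted p values are Benjamini-Hochberg over all 13105 genes. Under each other setting they are taken over the genes tested in that fit, from 10080 (60th percentile filter) to 18193 (no filter). On 20 simulated data sets of 13105 genes with 200 changed, the recovered share was 48.2% for 2-fold and 93.4% for 4-fold changes, and 6.6% of calls were false. The noise was drawn separately for each gene, so shifts that genes of a library share were not simulated. Changes under 2-fold were not simulated either. The shares therefore do not describe the members, whose median log2 fold change was -0.51.

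Values in every mouse are given for the core subunits, the called members, the 10 accessory subunits and 4 assembly factors with the smallest p, Ndufa4, Ndufa4l2 and genes with discordant probe sets, and in addition for Ndufa2 and Ndufaf8, chosen after their values were seen. Other members are given by their log2 fold changes and counts. Members, lists, motifs and alternatives were chosen with earlier results of these data known. The alternatives covered centring and quantile normalization, other filters, pseudocounts, probe set rules and variance priors, blocks for the replicate number and for Y-linked transcripts (Eif2s3y above 100), and libraries left out.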

Additional observations from a re-analysis of the deposited data

How the results depend on the processing

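The direction of the members was the steadiest part of the result, and the number called the least steady. Of 9 members called lower, the number was 5 under quantile normalization, 2 without a filter on dim probe sets, 1 by eBayes without an intensity trend, 24 with Y-linked transcripts as a block and 0 with wild type replicates 1 and 2 both left out. It ran from 0 to 10 with 1 library left out. For all genes the count of 352 became 216 without the filter, 167 without the trend, 1139 with Y-linked transcripts as a block and 21 with both wild type libraries left out, and ran from 64 to 667 with 1 library left out. Under quantile normalization the median went from -0.51 to -0.39 for all members and from -0.53 to -0.41 for the accessory subunits. For the nuclear core subunits it went from -0.38 to -0.27, and for the assembly factors, most of them dimmer, from -0.56 to -0.58. The accessory median ran from -0.63 to -0.49 with 1 library left out. No member was called higher under any of these settings. Over all the alternatives the log2 fold change of Ndufc1 ran from -0.98 to -0.78 and that of Ndufaf6 from -1.24 to -0.99. Each was called in 16 of 20 settings.

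With the replicate number as a block, 14 members and 854 genes were called, all 9 members among them. The labels do not say that a number marks a shared litter or day, so the numbers were not taken as pairs. Same-numbered deviations correlated at 0.149, 0.0666 and 0.301. Differently numbered ones correlated at 0.203, -0.293, 0.0274, -0.0779, -0.144 and -0.217. Whether the numbers mark pairs was not tested. Same-numbered libraries of the 2 groups were also alike in the presence of Eif2s3y. Directions turned for members near 0: Ndufa2 was 0.10 under quantile normalization and 0.03 with both wild type libraries left out, and ran from -0.13 to 0.06 with 1 library left out, being positive when that was wild type replicate 1 (0.01) or deficient replicate 1 (0.06). Ndufb1 ran from -0.31 to 0.12 with 1 library left out, at 0.12 when that was wild type replicate 2 or deficient replicate 3, and was 0.28 with both wild type libraries left out, where Ndufaf2 was 0.13, Ndufaf8 was 0.01 and Ndufb7 was 0.00. The cause of these shifts was not tested. The single-symbol probe set of Ndufb4 was too dim for a call.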
